A study of Mus musculus with 6 samples.

Results

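The genes described here encode 7 dual-specificity phosphatases that switch off MAP kinases: Dusp1, Dusp2, Dusp4, Dusp5, Dusp6, Dusp10 and Dusp14. They were found through the platform annotation, which assigned 8 of the 45101 probe sets on the array to these 7 genes, with a pair for Dusp10 and 1 for each of the others. All 8 passed the filter on dim signals, so every member was tested among 27766 probe sets. Signals came from microarrays of CD8 T cells out of MCA-205 fibrosarcomas implanted in male C57BL/6 mice whose cells report Eomes by GFP (Eomes-GFP). Eomes is a transcription factor of the T-box family found in effector and memory T cells. All mice were treated with aOX40, which stimulates the receptor OX40 on T cells (250 ug on days 12 and 16), and with aCTLA-4, which blocks the checkpoint receptor CTLA-4 (200 ug on days 12, 14 and 16). Treatment began at a tumour size of 50 to 80 mm2, and tumours were collected on day 19. The GFP-positive fraction (Eomes+) and the GFP-negative fraction (Eomes-) were each measured on 3 arrays, so both groups carried the reporter and both treatments, and no untreated group was analysed here. The reporter marks cells by GFP and not by Eomes protein, and neither the age of the mice nor the animals behind each array are given in the sources used here.

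MAP kinases carry signals from the T cell receptor, costimulatory receptors and cytokine receptors to the nucleus, through the ERK, p38 and JNK branches. A MAP kinase is active while both a threonine and a tyrosine in its activation loop carry phosphate, and DUSP phosphatases remove both. Many DUSP genes are themselves induced by the kinases they switch off, so their transcripts are read as negative feedback of antigen receptor signalling. Members differ in place and target: Dusp1, Dusp2, Dusp4 and Dusp5 encode nuclear phosphatases, Dusp6 a cytoplasmic one for ERK, Dusp10 one for p38 and JNK, and Dusp14 a small atypical one that lacks the kinase-binding domain of the others.

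Promoter sequences of 3 members are shown because their signals represent the patterns described below. The mean of Dusp14 was about 2-fold lower in Eomes+ cells, with overlapping groups. Dusp1 was nearly equal in the fractions, and Dusp5 was lowest on array 3 of each fraction. Each run is 300 bases from RefSeq (GRCm38.p6), from 250 bases before the annotated start to 50 after it, 5′ to 3′ on the gene's strand. Capitals mark letters of the motifs searched. Dusp14 lies at chr11:84068308-84068607 on the minus strand, Dusp1 at chr17:26508423-26508722 on the minus strand and Dusp5 at chr19:53528895-53529194 on the plus strand.
Dusp14: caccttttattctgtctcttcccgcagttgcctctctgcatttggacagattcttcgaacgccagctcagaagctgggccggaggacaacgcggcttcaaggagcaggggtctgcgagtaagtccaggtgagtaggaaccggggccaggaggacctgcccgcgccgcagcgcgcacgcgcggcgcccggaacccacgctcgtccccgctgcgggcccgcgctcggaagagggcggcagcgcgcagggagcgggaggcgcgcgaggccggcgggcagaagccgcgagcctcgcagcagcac
Dusp1: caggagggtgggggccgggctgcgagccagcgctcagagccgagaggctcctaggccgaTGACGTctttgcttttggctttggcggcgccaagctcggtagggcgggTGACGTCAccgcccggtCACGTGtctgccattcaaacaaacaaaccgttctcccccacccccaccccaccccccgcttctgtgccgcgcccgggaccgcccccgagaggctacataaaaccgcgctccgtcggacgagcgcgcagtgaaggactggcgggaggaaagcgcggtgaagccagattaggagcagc
Dusp5: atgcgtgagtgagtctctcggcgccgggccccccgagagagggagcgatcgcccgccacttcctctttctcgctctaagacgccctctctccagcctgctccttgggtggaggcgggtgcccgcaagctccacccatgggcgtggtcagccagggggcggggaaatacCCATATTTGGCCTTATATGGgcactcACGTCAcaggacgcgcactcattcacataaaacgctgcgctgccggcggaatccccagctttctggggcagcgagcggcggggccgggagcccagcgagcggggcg

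The motifs were searched on both strands in the promoters of the 6 members that matched the table (no entry for Dusp4) and in all 32851 promoters of the same length. The cAMP response element TGACGTCA was found in Dusp1, first base 143 before the start, and in 1.79% of all promoters. Its shorter form TGACGT matched 3 times in Dusp1, with first bases 191, 143 and 141 before the start. The matches at 143 and 141 are the full element itself, read on each strand. The shorter form occurred 1 time in Dusp5 and was found in 7.51% of all promoters. A CArG box, the motif of serum response factor, occurred 2 times in Dusp5, with first bases 82 and 72 before the start, and in 1.63% of all promoters. The E-box CACGTG was found in Dusp1 and Dusp2 (7.15% of all). Neither the AP-1 motif TGANTCA (7.81% of all) nor the T-box motif GGTGTGA (3.98% of all) was present in any of the 6 windows, and the Dusp14, Dusp6 and Dusp10 windows held none of the motifs. A match of letters is a description of the window and shows neither binding nor use of a site.

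Eomes, read as a check of the sort, had log2 signals of 10.38, 9.86 and 8.38 on Eomes+ arrays 1, 2 and 3 and of 6.85, 6.89 and 5.42 on Eomes- arrays by its brighter probe set, with no overlap (log2 difference 3.15, SE 0.63; limma adjusted p = 1.00). Tumour and T cell markers differed between arrays more than between fractions. The mean of 18 tumour and fibroblast markers was 8.82, 10.70 and 11.61 log2 in the Eomes+ fraction, in the order of the array numbers, and 8.65, 9.77 and 11.63 in the Eomes- fraction, with 18 of 18 higher in Eomes+ (median 0.30 log2). The mean of 13 T cell and CD8 markers was 12.05, 11.88 and 10.83 against 12.23, 12.22 and 10.96 log2, with 2 of 13 higher. The arrays of number 3 thus had the most tumour RNA signal and the least T cell signal in both fractions. The labels mention independent experiments but tie no array to one, and every p-value here therefore measures only the spread between these samples, which may be technical.

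Dusp4 (probe set 1428834_at), which encodes a nuclear phosphatase of ERK and JNK, had the smallest p of the members. It gave log2 signals of 8.83, 9.16 and 8.82 on the Eomes+ arrays, in the order 1, 2 and 3, and of 10.12, 10.13 and 9.83 on the Eomes- arrays. The groups did not overlap, with 0.67 log2 between the highest Eomes+ array and the lowest Eomes- array. The mean was 8.94 ± 0.19 against 10.03 ± 0.17 log2 (SD, n = 3 each), a signal 2.13-fold lower in Eomes+ cells (95% interval 1.50 to 3.03; log2 difference -1.09, SE 0.21). Unlike the tumour markers, Dusp4 had similar signals on all arrays of 1 fraction. In sorted bulk samples, fewer cells that express a gene and less RNA per cell cannot be told apart.

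The Dusp4 difference did not pass the test over all probe sets (limma adjusted p = 1.00, unadjusted p = 0.00153). Its unadjusted p ranked 28 of 27766. No member passed: limma called 0 of 8 member probe sets at an adjusted p under 0.05, where 0% of all tested were called. At an unadjusted p under 0.05 the members held 1 of 8, namely Dusp4, against 936 of all tested (3.37%), of which 629 were lower in Eomes+ cells (2.27%). Over the alternatives run, the Dusp4 log2 difference lay between -1.20 and -0.99, the unadjusted p between 0.000158 and 0.0248 and the adjusted p between 0.0514 (array weights) and 1.00. With the replicate number as a block, the adjusted p was 0.15, with 0 of 8 members and 0 of all tested called.

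Dusp14 (probe set 1431422_a_at), whose product binds the costimulatory receptor CD28 and restrains T cell receptor signalling, had as large a difference with a wider spread. Its log2 signal was 6.75, 7.03 and 8.10 on the Eomes+ arrays and 7.69, 8.22 and 9.29 on the Eomes- arrays. Array 3 was the highest of each fraction, and the groups overlapped, since Eomes+ array 3 lay above Eomes- array 1. The mean was 7.29 ± 0.71 against 8.40 ± 0.82 log2 (SD, n = 3 each), a log2 difference of -1.11 (SE 0.53; limma adjusted p = 1.00, unadjusted p = 0.0754), or a signal 2.16-fold lower (95% interval 0.90 to 5.17).

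Between arrays of the same number, the Dusp14 difference was much more even than these group values. It was -0.94, -1.19 and -1.20 log2 for numbers 1, 2 and 3, with an SD of 0.15. With the replicate block, in which such differences set the spread, the unadjusted p was 0.00227 and the adjusted p 0.24. Without Eomes- replicate 3 the difference was -0.66 log2 and without Eomes+ replicate 3 it was -1.51. When a covariate for tumour and macrophage marker levels was added it was -1.29 log2 (limma adjusted p = 0.27). Within each fraction the Dusp14 signal was highest on the array with the highest tumour marker mean.

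**Figure D1:**
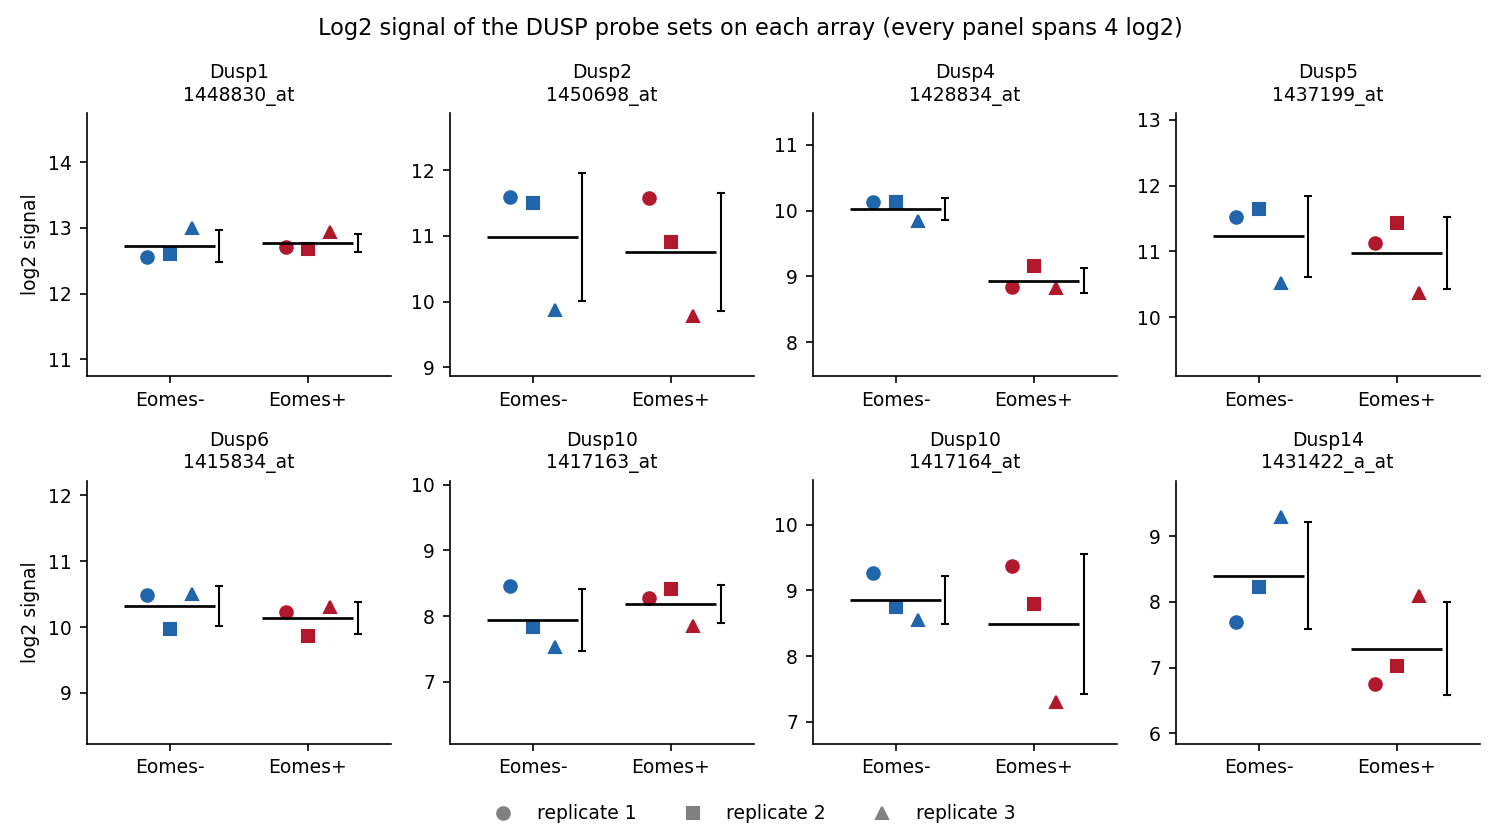
Log2 signal (vertical axis) of the 8 DUSP probe sets on 3 Eomes- and 3 Eomes+ arrays, with the symbol giving the replicate number, the horizontal line the group mean and the bar beside it 1 SD to each side. Dusp4 is the 1 panel in which the groups are separate, at 8.82 to 9.16 against 9.83 to 10.13, and the array 3 symbols of Dusp2 and Dusp5 lie low in both fractions.

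Dusp1 (probe set 1448830_at), an immediate early gene whose product acts on p38, JNK and ERK in the nucleus, had nearly equal signals in the fractions. It read 12.71, 12.67 and 12.93 log2 on the Eomes+ arrays and 12.56, 12.60 and 13.00 on the Eomes- arrays. The groups overlapped fully, and array 3 was the highest of each. The log2 difference was 0.05 (SE 0.15, 95% interval -0.30 to 0.40; limma adjusted p = 1.00), the narrowest interval among the members, and its upper and lower bounds lie well inside a 2-fold difference. Its sign turned when Eomes+ replicate 3, Eomes- replicate 1 or Eomes- replicate 2 was left out (-0.03, -0.03 and -0.01).

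Dusp2 (probe set 1450698_at), a nuclear phosphatase gene of activated lymphocytes, varied with the array number. Its log2 signal was 11.57, 10.90 and 9.79 on the Eomes+ arrays and 11.58, 11.50 and 9.87 on the Eomes- arrays. Array 3 differed from the mean of arrays 1 and 2 by -1.45 log2 in Eomes+ cells and by -1.67 in Eomes- cells. The difference between fractions, at -0.23 log2 (SE 0.60, 95% interval -1.67 to 1.20; limma adjusted p = 1.00), was smaller than this spread. With the covariate for other cells' RNA it was -0.02 log2, and without Eomes+ replicate 3 it turned to 0.25. Its sign also turned, by less, without Eomes- replicate 1 and without Eomes- replicate 2.

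Dusp5 (probe set 1437199_at), which encodes a nuclear phosphatase specific for ERK, varied in the same way. It read 11.14, 11.43 and 10.38 log2 on the Eomes+ arrays and 11.52, 11.64 and 10.53 on the Eomes- arrays. Eomes+ cells were lower within every number, by -0.39, -0.22 and -0.15 log2, and the groups overlapped. The fitted log2 difference was -0.25 (SE 0.38, 95% interval -1.17 to 0.67; limma adjusted p = 1.00, and 0.53 with the replicate block). Without Eomes+ replicate 3 it was 0.051 and without Eomes- replicate 3 it was -0.60. T cell markers, which were also lowest on both arrays of number 3, moved with Dusp2 and Dusp5, and their part in these values was not tested.

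**Figure D2:**
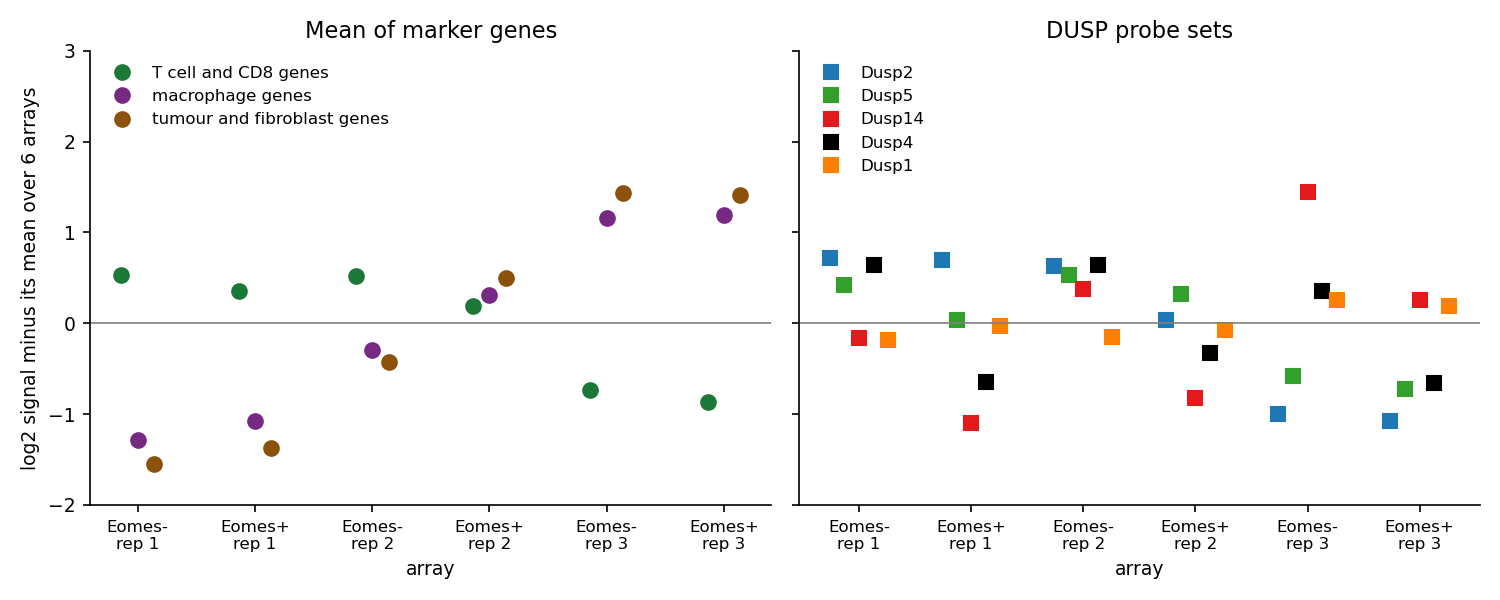
Log2 signal on each array minus its mean over the 6 arrays (vertical axis), for means of 13 T cell, 18 macrophage and 18 tumour marker genes on the left and for 5 DUSP probe sets on the right. On both arrays of replicate 3 the T cell genes, Dusp2 and Dusp5 lie below their means while tumour genes and Dusp1 lie above, and Dusp4 lies below its mean on all 3 Eomes+ arrays.

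Dusp6 (probe set 1415834_at), the cytoplasmic ERK phosphatase and a common readout of ERK activity, differed little. Its log2 signal was 10.23, 9.86 and 10.31 on the Eomes+ arrays and 10.49, 9.97 and 10.50 on the Eomes- arrays. Array 2 was the lowest of each fraction, and the groups overlapped. Within numbers the differences were -0.25, -0.11 and -0.19 log2, all of 1 sign and with an SD of 0.07. The fitted value was -0.18 log2 (SE 0.23, 95% interval -0.73 to 0.37; limma adjusted p = 1.00, and 0.72 with the replicate block), an interval that excludes a 2-fold difference in either direction. Its size rested on single arrays, at -0.36 without Eomes- replicate 2, -0.09 without Eomes- replicate 3, -0.10 without Eomes- replicate 1 and -0.05 without Eomes+ replicate 2.

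Dusp10, a phosphatase gene of the p38 and JNK branches, had probe sets that disagreed in direction. Probe set 1417163_at read 8.27, 8.42 and 7.85 log2 on the Eomes+ arrays and 8.45, 7.83 and 7.53 on the Eomes- arrays, a log2 difference of 0.24 (SE 0.33; limma adjusted p = 1.00), which single arrays moved between 0.04 (without Eomes- replicate 3) and 0.50 (without Eomes- replicate 1). Probe set 1417164_at, designed from the same transcript record, read 9.37, 8.79 and 7.30 against 9.26, 8.75 and 8.55, a log2 difference of -0.37 (SE 0.54; limma adjusted p = 1.00). The negative value of the second came from array 3: its differences for numbers 1, 2 and 3 were 0.11, 0.04 and -1.25 log2, and without Eomes+ replicate 3 the fitted value was 0.23. No direction for Dusp10 was therefore common to both probe sets.

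Across the 8 member probe sets, 6 had a lower and 2 a higher mean in Eomes+ cells, with a median difference of -0.24 log2, against 53.4% lower and a median of -0.02 log2 over all tested probe sets. The median rested on single arrays: it was 0.012 without Eomes+ replicate 3, -0.10 without Eomes- replicate 1, -0.39 without Eomes+ replicate 2, -0.48 without Eomes+ replicate 1 and -0.56 without Eomes- replicate 3. Eomes+ cells were lower within all 3 numbers for 5 of 8 members (Dusp2, Dusp4, Dusp5, Dusp6 and Dusp14), where 17.9% of all tested probe sets were. The difference was at least 2-fold lower for 2 of 8, Dusp4 and Dusp14, against 1.27% of all tested. Non-overlapping groups with lower Eomes+ signals were found for 1 of 8 (5.14% of all tested), and with higher Eomes+ signals for 0 of 8 (2.92%). With the replicate block, 2 of 8 members had an unadjusted p under 0.05 and a lower Eomes+ signal, namely Dusp4 and Dusp14, against 6.01% of all tested. The members share their arrays and are not replicates of each other.

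**Figure D3:**
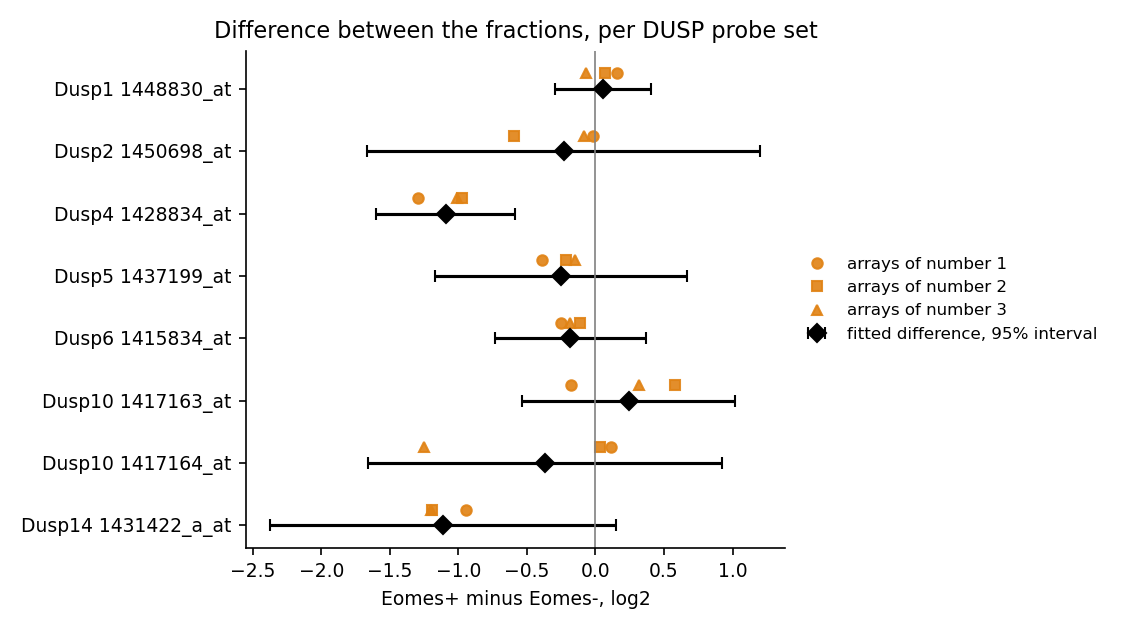
Difference in log2 signal, Eomes+ minus Eomes- (horizontal axis), for the 8 DUSP probe sets: diamonds with bars give the limma estimate and its 95% interval, and orange symbols the differences between arrays of the same number. Dusp4 and Dusp14 lie near -1.1 with all 3 same-number differences at or below -0.94, while the interval of Dusp14 reaches past 0.

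Other measures moved with the fraction in which Dusp4 and Dusp14 were lower. Of 7 tested marker genes of CD4 T cells and Treg cells, 6 had a lower mean in the Eomes+ fraction. The mean of all 7 was 7.70, 7.46 and 6.97 log2 on the Eomes+ arrays and 8.38, 8.53 and 7.61 on the Eomes- arrays. These groups overlapped, since Eomes- array 3 lay below Eomes+ array 1. General T cell and CD8 markers were also mostly lower in Eomes+, with 2 of 13 higher. In contrast, 18 of 18 tumour and fibroblast markers and 13 of 18 macrophage markers were higher. Cd4 itself lay between 6.74 and 7.36 against 7.10 and 7.58 log2. The brightest Cd8a probe set lay between 11.95 and 13.05 against 12.56 and 13.55, also with a lower mean in Eomes+ (12.61 against 13.20). The ratio of 3' to 5' control signals is a sign of RNA quality and tends to be higher where RNA is less intact. Averaged over Gapdh and Actb, it was higher on all 3 Eomes+ arrays (0.93 ± 0.08 against 0.65 ± 0.11 log2, SD, n = 3 each). A two-sided exact permutation test gave p = 0.1 and can give no smaller value here. The difference was 0.49 log2 for Gapdh alone, and 0.07 for Actb alone, whose groups overlapped. The part of these measures in the DUSP differences was not tested. With the covariate for tumour and macrophage RNA, the Dusp4 difference was -1.08 log2. That covariate held neither the CD4 and Treg markers nor the RNA quality ratio.

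Of 18 other listed DUSP family genes, 13 were tested by their brightest probe set, 6 lower and 7 higher in Eomes+ cells, with a median of 0.00 log2. None was called (0 of 13 by limma at an adjusted p under 0.05), and 2 had an unadjusted p under 0.05. Over all tested probe sets, 53.4% were lower in Eomes+ cells and 3.37% had an unadjusted p under 0.05. Dusp27, which the list did not hold, was also tested and differed by 0.05 log2 (SE 0.21). Dusp16, a phosphatase gene of the JNK branch, read 8.37, 7.85 and 7.48 log2 on the Eomes+ arrays and 9.15, 8.78 and 8.65 on the Eomes- arrays, with no overlap. Its log2 difference was -0.96 (SE 0.31; limma adjusted p = 1.00, unadjusted p = 0.0184), and the other Dusp16 probe set gave -1.39 (SE 0.47). Dusp22, a phosphatase gene that restrains the kinase Lck, differed by -0.83 log2 (SE 0.41) with overlapping groups.

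Styx, a catalytically dead relative that binds ERK, differed by -0.63 log2 (SE 0.23; limma unadjusted p = 0.0327), although 2 of its 3 other probe sets differed in the opposite direction. Dusp3, an atypical phosphatase gene, was higher in Eomes+ cells at 0.66 log2 (SE 0.36). One of its other probe sets gave 1.20 and one -0.18, so its direction was not common to all.

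Among other inhibitors of the ERK pathway, Spry1 had the largest difference. Its product, a Sprouty protein, blocks the step from receptors to Ras. The log2 signal of Spry1 was 6.73, 6.14 and 6.00 on the Eomes+ arrays and 8.24, 8.22 and 7.02 on the Eomes- arrays. The groups did not overlap, and the log2 difference was -1.54 (SE 0.42, a 2.90-fold lower signal; limma adjusted p = 1.00, unadjusted p = 0.00847). It passed in 1 of the alternatives, the fit with array weights (-1.98 log2, adjusted p = 0.0457), and lay between -1.98 and -1.24 in the 20 alternatives that kept it, since the stricter filter on dim signals dropped it.

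Spry2, the related Sprouty gene, differed by -0.53 log2 (SE 0.32), and by -0.59 (SE 0.24) for its other probe set. Of the 15 tested feedback genes, 9 were lower and 6 higher, with a median of -0.07 log2 and 0 called. Of all tested probe sets, 53.4% were lower. Spred2, which encodes an inhibitor of Raf activation, and Rasa3, which encodes a GTPase-activating protein of Ras and Rap, had the smallest p on the higher side, at 0.24 (SE 0.29) and 0.44 log2 (SE 0.28).

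**Figure D4:**
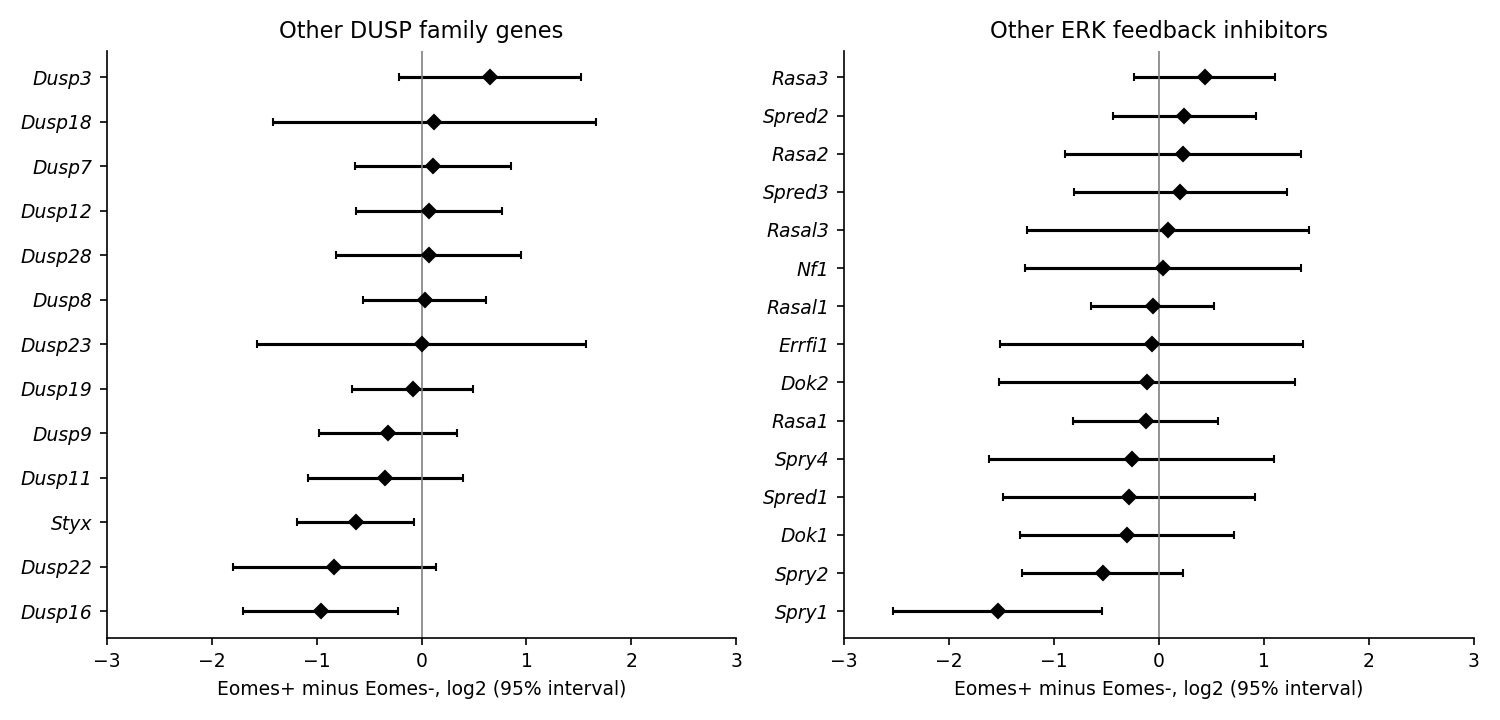
Difference in log2 signal, Eomes+ minus Eomes- (horizontal axis), with 95% intervals from limma, for 13 other DUSP family genes on the left and 15 other ERK feedback genes on the right, each by its brightest tested probe set. Dusp16 at -0.96 and Spry1 at -1.54 are the lowest of each panel, and most other intervals span 0.

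By their brightest probe sets, the listed genes of the kinase branches differed by less than Dusp4, Dusp14, Dusp16 and Spry1, though not by less than every member. Of 15 tested genes of the ERK branch, 11 were lower and 4 higher in Eomes+ cells, with a median of -0.16 log2. Of all tested probe sets, 53.4% were lower. In this list 0 were called by limma and 1 had an unadjusted p under 0.05, against 3.37% of all tested probe sets. That gene was Araf, a Raf kinase gene, at -0.58 log2 (SE 0.23), whose 3 other probe sets differed in the opposite direction. Map2k1, which encodes the ERK kinase MEK1, differed by -0.48 log2 (SE 0.24), and Sos1, which encodes a Ras activator, by -0.60 (SE 0.29). Neither had overlapping groups, but the gaps were small. For Map2k1 the highest Eomes+ array read 9.979 and the lowest Eomes- array 9.986 log2, and for Sos1 8.758 and 8.771. Groups lower in Eomes+ without overlap were found for 4 of the 15, against 5.14% of all tested probe sets. The other Sos1 probe sets went both ways. Rasgrp2, which encodes an activator of Rap and Ras, was higher at 0.70 log2 (SE 0.50), and 7 genes of this list were not analysed here. In the p38 and JNK branches 14 of 25 tested genes were lower and 11 higher, with a median of -0.06 log2 and 0 at an adjusted or unadjusted p under 0.05. The smallest p was that of Map3k4, at -0.46 log2 (SE 0.29), followed by 2 more kinase kinase kinase genes and Map2k6, a p38 kinase kinase gene: Map3k3 differed by 0.41 (SE 0.27), Map2k6 by -0.60 (SE 0.45) and Map3k2 by -0.32 (SE 0.25).

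Transcripts known to be induced through ERK had no common direction. Of 20 tested, 8 were lower and 12 higher in Eomes+ cells, where 53.4% of all tested probe sets were lower. The median was 0.03 log2 (-0.21 when Eomes+ replicate 3 was left out and 0.39 when Eomes- replicate 3 was). None was called by limma and 1 had an unadjusted p under 0.05, against 3.37% of all tested probe sets. Egr3, a zinc finger factor gene of T cell receptor signalling, had that value, at -0.75 log2 (SE 0.30; limma unadjusted p = 0.0414) without overlap of the groups. Egr2, its relative, differed by 0.36 log2 (SE 0.25) in the opposite direction. The immediate early genes Junb and Ier2 differed by -0.26 (SE 0.25) and -0.23 log2 (SE 0.32; 0.037 without Eomes- replicate 3). Heat shock and dissociation genes, which rise with handling of cells, had 6 lower and 7 higher of 13 tested, a median of 0.0064 log2 and 0 called. The 1 at an unadjusted p under 0.05 was Btg2, an antiproliferative gene, at -0.67 log2 (SE 0.26).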

How the data were processed

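Each of the 6 columns holds log2 signals that the authors deposited (1.68 to 14.95). The scale was read from the values, and the submitters' processing notes name Transcriptome Analysis Console and MAS5 without versions or roles. Array medians lay between 6.35 and 6.42 log2, so a shift shared by most genes would not be visible. The number of arrays limits the precision.

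The 64 control probe sets were not tested. A probe set was tested when it exceeded the 40th percentile of its array on at least 3 arrays (27766 of 45101), and lists of other genes used the brightest tested probe set of each gene. Symbols were updated by gene identifier (34741 of 34945 matched RefSeq). The fractions were compared per probe set with limma 3.58.1 (R 4.3.3) by two-sided moderated tests with an intensity trend, and p-values were adjusted over all tested probe sets by Benjamini-Hochberg. Differences are Eomes+ minus Eomes-.

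The members and gene lists were chosen with earlier results of these data known. Named genes were every member, Eomes, up to 4 genes of smallest p per list and, for each member, the 3 genes nearest in profile. Arrays of the same replicate number were not treated as pairs: their deviations from the group means correlated at 0.60, 0.10 (0.0989, under the required 0.1) and 0.63. Over tested probe sets alone the values were 0.67, 0.09 and 0.69. The main fit thus counted deviations shared by the arrays of number 1 and of number 3 as spread, which the replicate block does not. Alternatives were a replicate block, other filters, gene-level fits, quantile normalization, median centring, a pseudocount of 32, other variance models, array weights, a covariate for other cells' RNA and arrays left out. In data simulated at the real spread for all 27766 probe sets, 2% of 1 log2 differences and 48% of 3 log2 differences were recovered, with 0 false calls. Each rate rests on 50 changed probe sets. The simulated noise was independent between arrays, so the rates do not cover deviations shared by arrays of the same number.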

Additional observations from a re-analysis of the deposited data

How the results depend on the processing

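The count of 0 member probe sets called held in all 21 alternatives. Over all tested features the count was 0 in 19 of them, 74 with array weights and 17 at the gene level with the replicate block, a combination chosen after seeing the data. With the replicate block alone limma called 0, and the adjusted p was 0.15 for Dusp4 and 0.24 for Dusp14. The median member difference ranged from -0.56 to 0.012 log2 with single arrays left out. Dusp4, Dusp6 and Dusp14 kept their direction in all 21, and the first Dusp10 probe set (1417163_at) in the 19 run on it, since gene-level fits used the other. Member differences turned 9 times, always with arrays left out, and the cause was not tested: Dusp1 ranged from -0.028 to 0.19, Dusp2 from -0.79 to 0.25, Dusp5 from -0.60 to 0.051 and Dusp10 (1417164_at) from -0.81 to 0.23 log2, the last also being 0.075 without both arrays of number 3. For Eomes and the list genes named in the report (22 in all, without Dusp27), 456 alternative values stayed on the same side of 0 and of the threshold. The 60th percentile filter dropped Spry1 and Map2k6. Ier2 turned 1 time, ranging from -0.47 to 0.037 log2 with single arrays left out, and 3 values newly passed, Eomes with array weights (2.92 log2) and at the gene level with the block (3.15), and Spry1 with array weights (-1.98). The median of the other DUSP family genes was -0.35 log2 without both arrays of number 2. No scaling moved the median of all probe sets by over 0.1 log2. With a pseudocount of 32, which weighs down dim signals, the Dusp14 difference was -0.97 log2.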

Other observations

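Other genes followed the array-by-array profile of single members closely, which is given as a description over 6 arrays and 12564 genes, with no test. The measure is the mean absolute distance between log2 profiles, each centred on its own mean over the arrays. Nearest to Dusp4 were 2310075K07Rik, Eml2 and Rnf19a, each at a distance of 0.12 log2 where the median gene lay at 0.57. For Dusp14 they were Gstt3 (0.20), Nradd (0.23) and Sync (0.23), against a median of 0.75. Gprin3 (0.06), Dennd11 (0.07) and Lax1 (0.08), the last an adaptor gene of lymphocyte receptor signalling, were nearest to Dusp2, against a median of 0.71. Dusp5 was closest to Parp4 (0.06), Blmh (0.06) and the glutamine transporter gene Slc1a5 (0.07), against 0.48.

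For the remaining members the nearest genes were as follows. Rnf149, the clathrin heavy chain gene Cltc and Nudc lay within 0.03 to 0.04 log2 of Dusp1 (median 0.32), and Mydgf, Rdh5 and Zfp575 at 0.06 from Dusp6 (median 0.35). The brighter Dusp10 probe set was nearest to Rpap1 (0.13), Icosl (0.13) and Zfp445 (0.15), against a median of 0.55.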
